A study of Mus musculus with 6 samples.

Results

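The genes described here are the SRC family kinases Fyn, Lyn, Src, Fgr and Yes1, the kinases Syk and Btk, and the regulators Csk and Ptpn6, 9 genes chosen by name and not by their values. A gene was read at probes for which the platform annotation gives its symbol alone, and Fyn at the probe that the study lists for it. In this way 7 of the 9 genes had a probe among the 33012 of the array, each of them 1 probe (13840 genes have a probe with 1 symbol in all), and Lyn and Src were not analysed here. The annotation lists no gene for the Fyn probe, so its identity rests on the study's list, which was drawn up from these same samples. Of the 7 genes 6 had a mean intensity above the array median, and Yes1 lay at the 10.4th percentile of all probes.

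RAW 264.7 cells, a mouse macrophage-like line grown in culture, were compared in 2 groups. In the LPS group cells received 1 μg/mL lipopolysaccharide (LPS), a bacterial endotoxin that activates macrophages, and in the 15(S)-HETE + LPS group they received 40 μM 15(S)-HETE, a hydroxylated product of arachidonic acid, immediately before the same LPS. Total RNA was taken at 24 h from 3 biological replicates per group, each pooled from 6 wells. On mouse genome survey arrays 1 chemiluminescent intensity per probe was measured. The sample records give 5% serum for both groups. No vehicle for the LPS group is named in the study's methods. All the cells had received LPS, so nothing here describes resting cells, and a change of the whole cell population cannot be told apart from one of a fraction of the cells. P-values measure the spread between these pooled cultures of a single line. All 8 measured markers of macrophages (of 12 listed), such as Spi1, Cd14 and Lyz2, were above the array median. Below it were 6 of 8 measured markers of T and B lymphocytes and 4 of 6 epithelial markers. Only 2 of 6 granulocyte and mast cell markers and 3 of 7 fibroblast markers were below it. A place above the median is thus not particular to macrophage markers.

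SRC family kinases sit on the inner face of the plasma membrane and are held inactive when the kinase Csk phosphorylates a tyrosine in their tail. In macrophages they phosphorylate ITAM motifs used in signalling through Fc receptors, integrins and lectin receptors. Syk then binds to these motifs, and Btk acts further down the same cascade. Ptpn6 encodes SHP-1, a phosphatase that is recruited to ITIM motifs of inhibitory receptors and removes these phosphates. Levels of mRNA, which the arrays measure, do not show kinase activity.

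Of the 7 genes Fyn rose after 15(S)-HETE, 2.50-fold, and the other 6 did not pass the test. The 15(S)-HETE + LPS and LPS samples did not overlap for Fyn and Btk, which were higher in every treated sample, and for Fgr, Csk and Ptpn6, which were lower in every treated sample. Such separation was common, at 30% of all probes and 45.6% of probes above the array median. The sequences just upstream of the 5 genes with separated groups follow. Each run is the 120 bases before the start of transcription, 5′ to 3′ on the gene's strand, from RefSeq (build GRCm38.p6), and the capitals mark GGAA, the core letters of sites for ETS factors such as PU.1, or its reverse complement.
Fyn, chr10:39369679-39369798, plus strand: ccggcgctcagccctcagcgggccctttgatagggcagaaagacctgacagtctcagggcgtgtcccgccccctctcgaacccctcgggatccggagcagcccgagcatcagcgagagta
Btk, chrX:134583141-134583260, minus strand: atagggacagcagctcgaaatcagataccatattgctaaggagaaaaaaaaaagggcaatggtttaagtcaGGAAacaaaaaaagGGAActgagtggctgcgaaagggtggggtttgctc
Fgr, chr4:132973975-132974094, plus strand: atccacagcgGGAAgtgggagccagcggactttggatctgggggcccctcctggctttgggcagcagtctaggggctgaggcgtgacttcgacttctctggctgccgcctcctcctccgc
Csk, chr9:57653632-57653751, minus strand, the more upstream of 2 listed starts: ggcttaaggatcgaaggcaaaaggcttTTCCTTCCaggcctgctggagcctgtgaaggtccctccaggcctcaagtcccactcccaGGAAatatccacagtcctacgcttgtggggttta
Ptpn6, chr6:124738710-124738829, minus strand: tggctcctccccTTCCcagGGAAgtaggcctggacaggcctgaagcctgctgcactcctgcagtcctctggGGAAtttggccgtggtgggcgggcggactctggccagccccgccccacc
Read on both strands, GGAA occurred 2 times for Btk, 1 time for Fgr, 3 times for Csk, 3 times for Ptpn6 and 0 times for Fyn. It is held by 73.4% of all 32851 windows of this length, so its presence sets none of these genes apart. The GC box GGGCGG occurred 3 times for Ptpn6 and 1 time for Fyn (26.5% of all windows hold it), and none of the 5 windows held the nuclear receptor half-site AGGTCA (6.91% of all windows) or the AP-1 site TGACTCA (2.3%). In the Ptpn6 window both plus-strand GGGCGG matches share bases with each other, and no other matches overlapped.

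Across the array LPS replicate 1 stood apart from the other LPS samples. Over the 16506 probes above the array median it differed from LPS replicates 2 and 3 by a median of 0.350 and 0.351 on the log2 scale, while those differed from each other by 0.138 and the treated samples among themselves by 0.154 to 0.185. For all 7 genes it was the LPS sample farthest from the LPS median, the highest LPS value for 5 of them and the lowest for Fyn and Yes1. Each change is therefore given with and without it. Log2 fold changes are 15(S)-HETE + LPS minus LPS, from limma fitted on all probes, with Benjamini-Hochberg adjustment over the array and calls at an adjusted p under 0.05. Intensities are in arbitrary units and are compared between samples, not between genes.

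**Figure D1:**
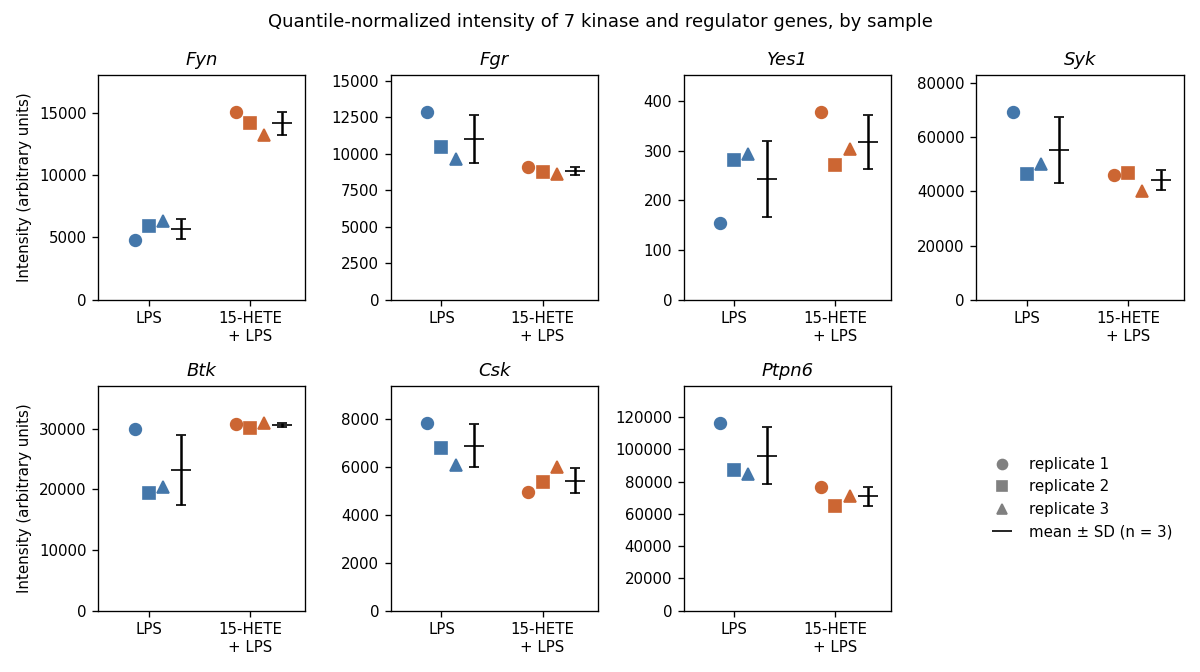
Quantile-normalized intensity (linear axis from 0, arbitrary units) of each of the 7 genes in the 3 LPS samples and the 3 samples treated with 15(S)-HETE and LPS, with replicates as separate symbols and the mean ± SD beside them. Fyn lies between 13196 and 15024 in treated samples, all above the highest LPS value of 6327, and LPS replicate 1 (blue circle) stands off from the other LPS samples in most panels.

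Among the SRC family kinases, Fyn, which acts early in immune receptor and integrin signalling, had intensities of 4827, 5872 and 6327 in the LPS samples and of 15024, 14200 and 13196 in the treated samples. No LPS sample came near the treated ones, and the treated samples were 2.65, 2.50 and 2.33 times the LPS mean. The mean was 5676 ± 769 (SD, n = 3) with LPS and 14140 ± 915 (SD, n = 3) with 15(S)-HETE, which gives a log2 fold change of 1.32 with a 95% interval of 0.86 to 1.78 and an SE of 0.19 (limma, adjusted p = 0.0493). The exact two-sided permutation test gave p = 0.1, the smallest that 3 samples against 3 allow. Fyn was the 1 gene of the group called, against 0.951% of all probes (0.509% higher), and since the study picked this probe on the same contrast the value is a description and no independent evidence. It did not reach the study's adjusted p of 0.025. At that level, joined to a change of at least 1.8-fold in at least 2 treated samples, limma called 0 probes of the array.

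The call of Fyn lay close to the threshold, while its size was stable. With any 1 sample left out its log2 fold change stayed between 1.21, with LPS replicate 1 removed, and 1.41, with LPS replicate 3 removed, and the adjusted p from 0.0709 to 0.192, in fits that called 0 probes of the whole array. With a prior variance that follows intensity (the intensity trend), its adjusted p was 0.00140 with all samples, where 8.84% of all probes were called (3.87% higher and 4.96% lower), and at most 0.0158 with any 1 left out. The genes most like Fyn over the 6 samples, among 8903 probes with 1 gene symbol and above-median intensity, were Nceh1, a cholesteryl ester hydrolase (r = 0.999), and Prrg4, a membrane protein with a Gla domain (r = 0.999). These points share arrays and normalization and fall into 2 groups, so a gene that differs between the groups to a similar relative extent will score high.

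Fgr, a SRC family kinase of myeloid cells, had 12846, 10456 and 9679 with LPS and 9100, 8776 and 8598 with 15(S)-HETE. The treated samples lay within a narrow band just under the lowest LPS sample. The log2 fold change was -0.31 (SE 0.19, 95% interval -0.76 to 0.15, adjusted p = 0.419), and -0.19 without LPS replicate 1. The interval spans 0.589 to 1.11 times the LPS level. Yes1, a widely expressed member of the family, was dim, with 154, 282 and 293 with LPS and 378, 271 and 304 with 15(S)-HETE. Its groups overlapped, and its log2 fold change of 0.43 (95% interval -0.32 to 1.18, adjusted p = 0.488) became 0.13 without LPS replicate 1.

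Syk, the kinase that binds phosphorylated ITAMs, had 69234, 46596 and 50152 with LPS and 46120, 46845 and 40053 with 15(S)-HETE. A single LPS sample, replicate 1, stood above the rest, and the other LPS values lay among or just above the treated ones. The log2 fold change was -0.30 (SE 0.22, 95% interval -0.84 to 0.23, adjusted p = 0.496) and -0.13 without that sample (95% interval -0.52 to 0.26). Over the 6 samples the genes most like Syk by the same measure were Coq8b (r = 0.998) and Papss1 (r = 0.995), for which LPS replicate 1 was also the highest sample.

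Btk, a TEC family kinase that acts downstream of Syk, had 29850, 19366 and 20293 with LPS and 30712, 30152 and 30902 with 15(S)-HETE. LPS replicates 2 and 3 lay well below the treated samples, which differed among themselves by 0.04 on the log2 scale, and LPS replicate 1 lay just below them. With all samples the log2 fold change was 0.43 (SE 0.22, 95% interval -0.12 to 0.97, adjusted p = 0.352), which did not pass. Without LPS replicate 1 it was 0.63 (SE 0.12, 95% interval 0.30 to 0.95, unadjusted p = 0.00521, a level that 20.1% of all probes passed), with an adjusted p of 0.105 in a fit that called 0 probes of the array. With the intensity trend its adjusted p was 0.155 with all samples and 0.000358 without that replicate, where 7.86% of all probes were called higher. When another sample was left out in its place the log2 fold change ran from 0.31 to 0.44, and the adjusted p with the intensity trend was at least 0.281. The difference in Btk thus rests on which LPS samples it is read against.

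Csk, which switches SRC family kinases off, had 7818, 6764 and 6054 with LPS and 4931, 5360 and 5977 with 15(S)-HETE. The highest treated sample and the lowest LPS sample were close to each other, and no sample crossed over. The log2 fold change was -0.34 (SE 0.19, 95% interval -0.81 to 0.13, adjusted p = 0.386), and -0.24 without LPS replicate 1. Ptpn6, the phosphatase SHP-1, had 116400, 87013 and 85046 with LPS and 76836, 64624 and 71223 with 15(S)-HETE. Its treated samples were the lower in every case, with a change of -0.43 on the log2 scale (SE 0.21, 95% interval -0.93 to 0.07, adjusted p = 0.313). Without LPS replicate 1 it was -0.28 (95% interval -0.66 to 0.10), and the adjusted p with the intensity trend went from 0.113 to 0.0363, in a fit that called 7.69% of all probes lower.

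**Figure D2:**
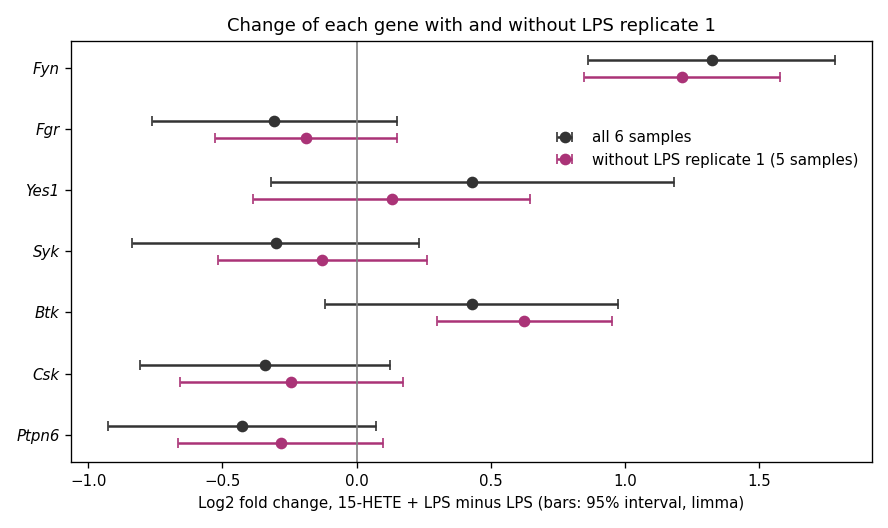
Log2 fold change of each gene (15(S)-HETE + LPS minus LPS, points) with its 95% interval from limma (bars), over all 6 samples and over the 5 without LPS replicate 1. Fyn is at 1.32 and 1.21, with intervals clear of 0 in both, and Btk is the 1 gene whose interval leaves 0 when the replicate is taken out (0.30 to 0.95).

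Over the group, 1 gene was called higher and 0 lower, with 1 higher and 0 lower also at an unadjusted p under 0.05, where 19.6% of all probes passed (8.62% higher and 11% lower). Fyn was also the 1 gene past the study's fold rule, a change of at least 1.8-fold in at least 2 treated samples, which 6.88% of all probes passed upward and 10.3% downward. By the methods' t-test, adjusted over all probes, 0 of the 7 and 0 of the array were called. The groups did not overlap for 5 of the 7 genes, 2 higher and 3 lower, whereas they did not overlap for 30% of all probes (13.7% higher and 16.3% lower) and for 45.6% of probes above the array median (20.3% higher and 25.3% lower), as 6 of the 7 are. The median log2 fold change was -0.30, against 0.01 for all probes, and without LPS replicate 1 it was -0.13, against 0.00096. Without that replicate all 7 genes kept the sign of their change. With all 6 samples the intervals of the 6 genes that did not pass all include 0. That does not show that these genes were unchanged: a fall of Ptpn6 to 0.526 of its LPS level or a rise of Btk to 1.96 times lies inside those intervals.

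Of the other kinases of these families none was called. Frk, a SRC-related kinase, had a change of 0.97 on the log2 scale (adjusted p = 0.311), with 1872, 716 and 587 with LPS and 2227, 1842 and 1456 with 15(S)-HETE. LPS replicate 1 lay among the treated samples, and without it the change was 1.48 (adjusted p = 0.0897, or 0.0274 under the intensity trend). The lymphoid kinase Blk (-0.21) and the epithelial kinase Ptk6 (-0.09), both dim, also overlapped between the groups. Tec, the founding kinase of the family of Btk, was higher in every treated sample, at 7701, 6270 and 6273 against 4689, 3395 and 2899 with LPS. The change was 0.90 on the log2 scale (SE 0.24) with an adjusted p of 0.123, or 0.0280 under the intensity trend. Zap70, the relative of Syk in T cells, had 0.28 and Txk -0.03. In all, 0 of the 3 measured SRC-type and 0 of the 3 measured SYK and TEC family kinases were called.

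Of 18 measured regulators of SRC and SYK signalling, from 21 listed, 0 were called. At an unadjusted p under 0.05, 2 higher and 2 lower passed (8.62% and 11% of all probes). The intensity trend called 1 higher and 2 lower (3.87% and 4.96%). The groups did not overlap for 6 higher and 2 lower. Among probes above the array median, as all but 1 of the 18 are, they did not overlap for 20.3% higher and 25.3% lower. Ubash3a, a phosphatase-like suppressor of T cell receptor signalling, had -1.81 on the log2 scale (adjusted p = 0.0529), and Sla, an adaptor that dampens SRC-dependent receptor signalling, 1.52 (adjusted p = 0.0760). Ptpra, a receptor phosphatase that activates SRC family kinases by removing the tail phosphate, had -0.59 (adjusted p = 0.153), with 88987, 83409 and 74258 with LPS and 52608, 50751 and 60130 with 15(S)-HETE. The groups of these 3 genes did not overlap. The other 5 whose groups did not overlap were higher in every treated sample, the phosphatases Ptpn18 (0.84, and 0.45 without LPS replicate 1), Ptpn11 (0.39), Ptpn2 (0.30) and Ptpn1 (0.29) and the adaptor Dok1 (0.16). The median of the list was 0.08, and 0.21 without LPS replicate 1.

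Of 14 measured genes on the list of ITAM adaptors and activating receptors, from 19 listed, 0 were called. The 5 not analysed include the adaptors Tyrobp and Fcer1g, so the list covers receptors and the B cell chains Cd79a and Cd79b. A positive log2 fold change was seen for 11 of them (50.5% of all probes), 7 higher and 0 lower passed at an unadjusted p under 0.05 (8.62% of all probes higher and 11% lower), and the intensity trend called 4 higher and 0 lower (3.87% and 4.96%). The median was 0.54, and 0.47 without LPS replicate 1. The Fc receptor Fcgr4 had 1.18 (adjusted p = 0.0869), the lectin receptor Clec5a 0.75 (adjusted p = 0.0951) and Trem2, a lipid-sensing receptor, 0.83 (adjusted p = 0.165). The groups did not overlap for 7 higher and 1 lower (13.7% and 16.3% of all probes). Among probes above the array median, as all but 2 of the 14 are, these shares were 20.3% and 25.3%. The 1 gene lower in every treated sample was the lectin receptor Clec4e (-0.49, adjusted p = 0.304, and -0.29 without LPS replicate 1). Of 11 measured ITIM inhibitory receptors, from 16 listed, 1 was called higher and 0 lower (0.509% and 0.442% of all probes). Cd300a rose by 1.17 on the log2 scale (adjusted p = 0.0493). Cd33 (0.56) and Pilra (0.57) were higher in every treated sample without passing. The intensity trend called 2 higher, Cd33 (adjusted p = 0.0396) among them, and 0 lower (3.87% and 4.96%). The groups did not overlap for 4 higher and 0 lower (13.7% and 16.3% of all probes). The change was positive for 8 and negative for 3, the lowest at -1.11. Sirpa, the macrophage receptor for CD47, had -0.07, and the median of the list was 0.25 and 0.11 without LPS replicate 1.

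Among 33 measured substrates and effectors, from 42 listed, 1 was called higher and 0 lower (0.509% and 0.442% of all probes), and 8 higher and 3 lower passed with the intensity trend (3.87% and 4.96%). Crkl, an adaptor that links SRC substrates to integrin signalling, rose by 1.60 on the log2 scale (SE 0.22) with an adjusted p of 0.0483. The focal adhesion kinase relative Ptk2b had 1.36 (adjusted p = 0.0552) and the adaptor Pik3ap1 1.04 (adjusted p = 0.0711). These 3 genes and Cd300a were picked by the study on these samples, so their values are not independent evidence. Of genes that act next to Syk and Btk, none of which passed the test, Blnk, their scaffold, had -0.72 (adjusted p = 0.139), Plcg2, the phospholipase that Btk activates, -0.47 (adjusted p = 0.286), and the exchange factors Vav1 and Vav3 -0.50 (adjusted p = 0.389) and 0.92 (adjusted p = 0.109). Of others of like role, the adaptor Lat2 had 0.60 (adjusted p = 0.163) and Vav2, which was dim, 0.93 (adjusted p = 0.423). With the intensity trend Blnk was called lower, and Vav3 and Lat2 higher. Over the whole list the change was positive for 19 genes and negative for 14. Vav1 had 311060 in LPS replicate 1 and 162267 to 177342 in the other LPS samples, and -0.21 without that replicate. Together 82 of the 110 listed pathway genes were measured, 2 were called higher and 0 lower, and their median log2 fold change was 0.16.

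**Figure D3:**
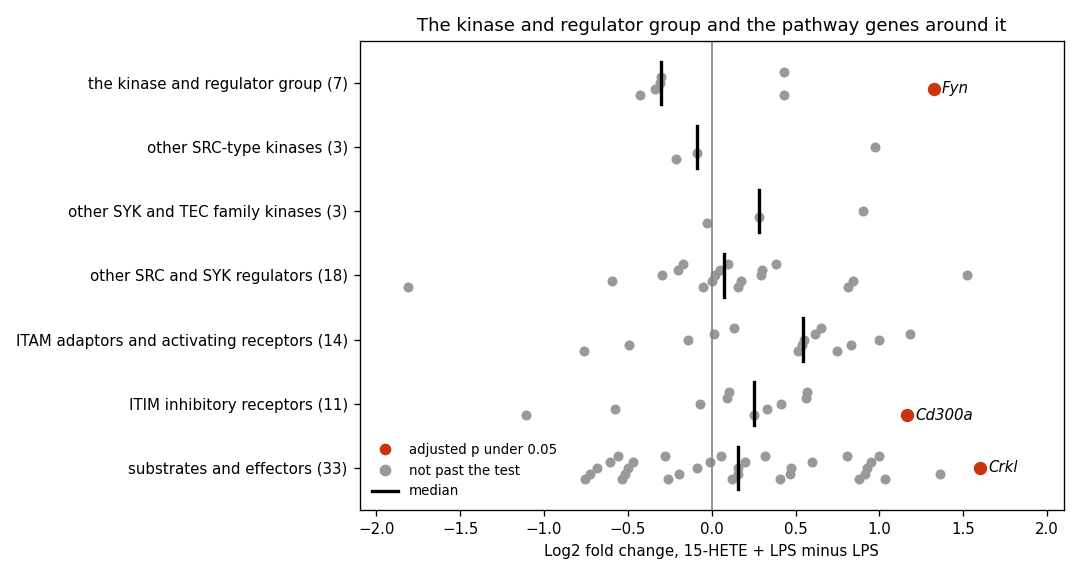
Log2 fold change (15(S)-HETE + LPS minus LPS) of the 7 genes and of each measured gene of the pathway lists, 1 point per gene at its brightest probe, with the number of measured genes in parentheses and black lines at the medians. Points called at an adjusted p under 0.05 from limma are red and named, namely Fyn, Cd300a and Crkl, and the median of the ITAM list is at 0.54.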

How the data were processed

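Total RNA of 6 samples was labelled with digoxigenin and hybridized to mouse genome survey arrays. The deposited intensities are linear values that the authors read with the analyzer's software and quantile normalized. Sorted values differed between samples by at most 0.224%, every sample had a median of 837, and 0 values were missing, so the filter on signal-to-noise and quality flags that the study describes had not been applied and was not repeated here. How background was corrected is not given in the sources used here.

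Intensities were turned to log2 with no offset, and a two-sided linear model per probe was fitted in R 4.3.3 by limma 3.58.1 (eBayes with its default prior, Benjamini-Hochberg over 33012 probes). Of these 14411 have 1 symbol in the platform annotation, 247 several and 18354 none, and 14402 were found in RefSeq by gene id with 0 symbols changed. A gene was represented by its brightest probe. Other probes of Ptpn11, Ptprj, Plcg1 and Nfatc1 had log2 fold changes of 0.06, -0.16, 0.79 and -0.48 against 0.39, -0.20, 0.05 and -0.01 at the brightest.

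The genes, pathway lists, markers and alternatives were chosen with earlier results of these data known. Named were all genes of the group and, per list, the 3 with the lowest p and any called. Other list genes in the text (Sirpa, Blnk, Plcg2, Vav1, Vav2, Vav3 and Lat2 for their roles, and Ptpn18, Ptpn11, Ptpn2, Ptpn1, Dok1 and Clec4e for their separated groups) were chosen after their values were seen. Of 6 granulocyte, 7 fibroblast and 6 epithelial markers measured 0 were called, with medians of -0.63, -0.13 and -0.11, while the intensity trend called 1 lower in each list, namely Mpo (-1.38, adjusted p = 0.0290), Dcn (-1.30, adjusted p = 0.00298) and Krt8 (-1.05, adjusted p = 0.0380). Whether these bear on the changes of the kinases was not tested. By either fit 0 of the macrophage and lymphocyte markers were called (medians 0.22 and -0.13). Tests were run on simulated data with independent samples of equal spread. Such data hold no sample that stands apart as LPS replicate 1 did. No label names the arrays run together, so array set and treatment cannot be told apart.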

Additional observations from a re-analysis of the deposited data

How the results depend on the processing

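Signs of all 7 log2 fold changes were kept under every alternative that gave a value, and the calls moved. Fyn, the 1 gene of the group called, was not called with a robust prior (0 genes, adjusted p = 0.0557), by the methods' t-test over all probes (0 genes, adjusted p = 0.136), at the study's thresholds (0 genes) or with the replicate number as a block (0 genes, adjusted p = 0.207). It stayed called when the t-test was adjusted over only those probes that met the study's fold rule (adjusted p = 0.0449), which called 190 probes of the array higher and 195 lower. That value lies above the study's own threshold of 0.025. Probes that met the rule were filtered by the change under test, and the Fyn probe was listed by the study by such a rule, so this says nothing of how firm the call is. Leaving out 1 sample gave 0 to 0 genes of the group, 0 to 0 pathway genes and 0 to 0 probes of the array called in either direction. Array-wide calls, 168 higher and 146 lower, were 1279 and 1638 with the intensity trend, 100 and 62 with the robust prior, 269 and 256 with an offset of 50, 911 and 1243 with an offset of 500, 1207 and 1589 over probes above the median, 570 and 654 with the dimmest probes left out, and 0 and 0 by the t-test over all probes, at the study's thresholds and with the replicate block. Of the pathway genes, 2 higher and 0 lower became 16 and 5 with the intensity trend, 11 and 2 with an offset of 500, 14 and 4 over probes above the median and 7 and 1 with the dimmest probes left out. With an offset of 50, 1 was lower. The higher ones were 0 with the robust prior, the t-test over all probes, the study's thresholds and the replicate block, and 1 by the t-test over probes past the fold rule. The cause of these shifts was not tested. Replicate numbers are shared by name only: deviations of same-numbered samples from their group means correlated at -0.0240, 0.00350 and 0.0237. Yes1 gave no value over probes above the median or with the dimmest probes, those below the first quartile, left out. A brighter annotated Fyn probe could not be tried, as the annotation lists none. Fits with the intensity trend and a sample left out were added after seeing the data. Signal over background could not be judged, as no flags or noise values were used here.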
